A study of Mus musculus with 4 samples.

Results

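The tRNAs for histidine (TrnH), for serine at AGY codons (TrnS2) and for leucine at CUN codons (TrnL2) lie side by side on the plus strand of mouse mitochondrial DNA (MT), between the genes of the respiratory complex I subunits ND4 and ND5. They are 3 of the 22 mitochondrial tRNA genes and of the 37 mitochondrial genes in all. TrnH was taken as positions 11546 to 11612 (67 nucleotides), TrnS2 as 11613 to 11670 (58) and TrnL2 as 11671 to 11741 (71), a stretch of 196 nucleotides. Every plus-strand cytosine that the authors' table lists inside these bounds was included, 34 of its 5988 positions: 13 in TrnH, 10 in TrnS2 and 11 in TrnL2. The 3 tRNAs were selected on the methylation levels measured in these libraries, because cytosines of TrnH and TrnS2 differed between the genotypes. Methylation levels and their difference between genotypes are therefore given as a description, without p-values, and calls of the fit are only counted, while read coverage, which did not guide the choice, was tested.

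The RNA came from mouse liver lysate enriched for mitochondria, with 2 libraries from wild-type mice (WT1 and WT2) and 2 from mice carrying the NSUN2-/- genotype (KO1 and KO2), called the knockout here. Strain, age, sex and the kind of mutation are not given in the sources used here, and the labels leave it unsaid whether WT1 and WT2, or KO1 and KO2, are different animals, so p-values measure only a spread that may be technical. RNA depleted of ribosomal RNA was treated with bisulfite, which turns cytosine into uracil and leaves 5-methylcytosine (m5C) as cytosine. The level of a position is the share of its reads that still carry cytosine, a share that also includes cytosine the treatment failed to convert. The table holds mitochondrial positions only, so neither the liver origin nor the Nsun2 transcript was checked.

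Mitochondrial DNA is transcribed into long precursors in which tRNAs sit between the other genes, and the tRNAs are cut out at both ends, receive a CCA tail and are modified at many bases. NSUN2 is a methyltransferase known to place m5C in the variable region of tRNAs, next to the T arm. The serine tRNA of TrnS2 is known for lacking the D arm that other tRNAs have, and TrnH and TrnL2 encode tRNAs with all arms. The series asks whether NSUN2 also modifies mitochondrial tRNAs. The variable region was approximated by a window of 20 to 29 nucleotides before the last nucleotide of each tRNA, which held 7 of the 34 cytosines.

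The table held 45471 to 99457 read calls in 3 libraries and 453489 in KO2. Of these, 6.50% to 16.5% fell on sense cytosines of tRNA genes in the first 3, against 0.252% in KO2, where 79.9% fell on 2 positions of the 12S rRNA gene mt-Rnr1. In that library no plus-strand cytosine of the 3 tRNAs had more than 7 reads, so the knockout values below come mostly from KO1. All intervals are exact (Clopper-Pearson) 95% intervals and cover counting error only, since reads without molecular identifiers are not independent molecules.

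In the wild type, methylated reads were concentrated on 1 cytosine of TrnH and 1 of TrnS2, each 24 nucleotides before the last nucleotide of its tRNA by the bounds above. RefSeq lets TrnS2 end at 11671, sharing that nucleotide with TrnL2, and by that end the distance in TrnS2 would be longer by that 1 nucleotide. The edgeR fit over all 482 stranded cytosines that had 10 or more reads in the sum of each genotype tested 24 cytosines of the 3 tRNAs. It called 2 of these 24 lower in the knockout, where 0.622% of all cytosines tested were called lower. A call needs an adjusted p under 0.05 and group means at least 10 percentage points apart. Since this contrast guided the choice of the tRNAs, nothing is read from that count. The fit called 0 of the 24 higher in the knockout (0% of all tested), as did Fisher's exact test and limma. At an unadjusted p under 0.05 edgeR had 2 of the 482 higher, 1 of them the last nucleotide of TrnH described below, which was singled out after its values were seen. The median difference between genotypes was 0 points over the 24 cytosines and 0 points over all 482.

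At position 11588 of TrnH, nucleotide 43, 229 of 230 reads of WT1 and 42 of 42 of WT2 were methylated. In the knockout, 6 of 36 reads of KO1 and 0 of 2 of KO2 were methylated. KO1 and KO2 were both lower than WT1 and WT2, and the 6 reads left a level of 16.7% in KO1, with an interval from 6.37% to 32.8%. The knockout mean of 8.33% ± 11.8 (SD, n = 2) lay -91.4 points from the wild-type mean of 99.8% ± 0.307 (SD, n = 2).

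At position 11646 of TrnS2, nucleotide 34, 163 of 225 reads of WT1 and 24 of 39 of WT2 were methylated. In the knockout, 0 of 151 reads of KO1 and 1 of 5 of KO2 were methylated. KO1 and KO2 were again both lower than WT1 and WT2. The 20% of KO2 rests on a single read, however, and its interval runs from 0.505% to 71.6%. Both sites lie in tRNAs chosen on this contrast, so nothing is read from the groups being apart. How many of all tested cytosines were apart was not counted. The knockout mean of 10% ± 14.1 (SD, n = 2) lay -57.0 points from the wild-type mean of 67.0% ± 7.71 (SD, n = 2).

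The levels of the 2 sites were not alike within a genotype, as a description without a test. In WT1 the level at TrnH 11588 had an interval from 97.6% to 100%, and that at TrnS2 11646 one from 66.1% to 78.2%. In WT2 the intervals were 91.6% to 100% and 44.6% to 76.6%. In both libraries the serine site was thus methylated in part of the reads and the histidine site in nearly every read. In KO1 the order was the other way round, with 16.7% at the histidine site and 0 of 151 reads at the serine site, where 3 counts would be a level of 1.99%. The 2 reads and 5 reads of KO2 cannot separate the sites.

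The calls rest on KO1: without it none of the 24 cytosines kept 10 knockout reads, and the count of lower cytosines was 0. With at least 10 reads asked of every library, none of the 24 could be tested. limma on log2 odds called TrnH 11588 and not TrnS2 11646.

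The remaining window cytosines of TrnH and TrnS2 stayed near 0. In TrnH, position 11585 (nucleotide 40) lies 3 nucleotides before the methylated one and had no methylated read among 231 in WT1, 43 in WT2, 37 in KO1 and 3 in KO2. In TrnS2, position 11643 (nucleotide 31) lies 3 nucleotides before the methylated one and had none among 243 reads in WT1, 41 in WT2, 155 in KO1 and 5 in KO2. Position 11647 (nucleotide 35) directly follows the methylated cytosine of TrnS2 and had 2 methylated reads of 221 in WT1, and none among 39 in WT2, 150 in KO1 and 5 in KO2. In wild type the level thus dropped from 70.8% of summed reads at 11646 to 0.769% (interval 0.0933% to 2.75%) at the very next nucleotide, on nearly the same number of reads.

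A minus-strand cytosine in the table stands for a guanine in the tRNA, which gives part of the surroundings of each site. After TrnH 11588 the next cytosine or guanine is a guanine 2 nucleotides on, whereas TrnS2 11646 is followed at once by the cytosine 11647. Each of the methylated cytosines has the preceding cytosine of its tRNA at a distance of 3 nucleotides, with no guanine in between. The sequences themselves are not printed, as no mitochondrial sequence was used here.

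TrnL2 has 2 cytosines in its window, at 11716 (nucleotide 46) and 11717 (nucleotide 47, 24 before the last). They were reached only by 2 reads of WT1, with 0 of 2 methylated at 11716 and 2 of 2 at 11717 (interval 15.8% to 100%). The cytosine at the distance seen in TrnH and TrnS2 was thus the methylated one, and 11717 was noticed after its values were seen. The other libraries had no read at either position, so the genotypes could not be compared in TrnL2.

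**Figure D1:**
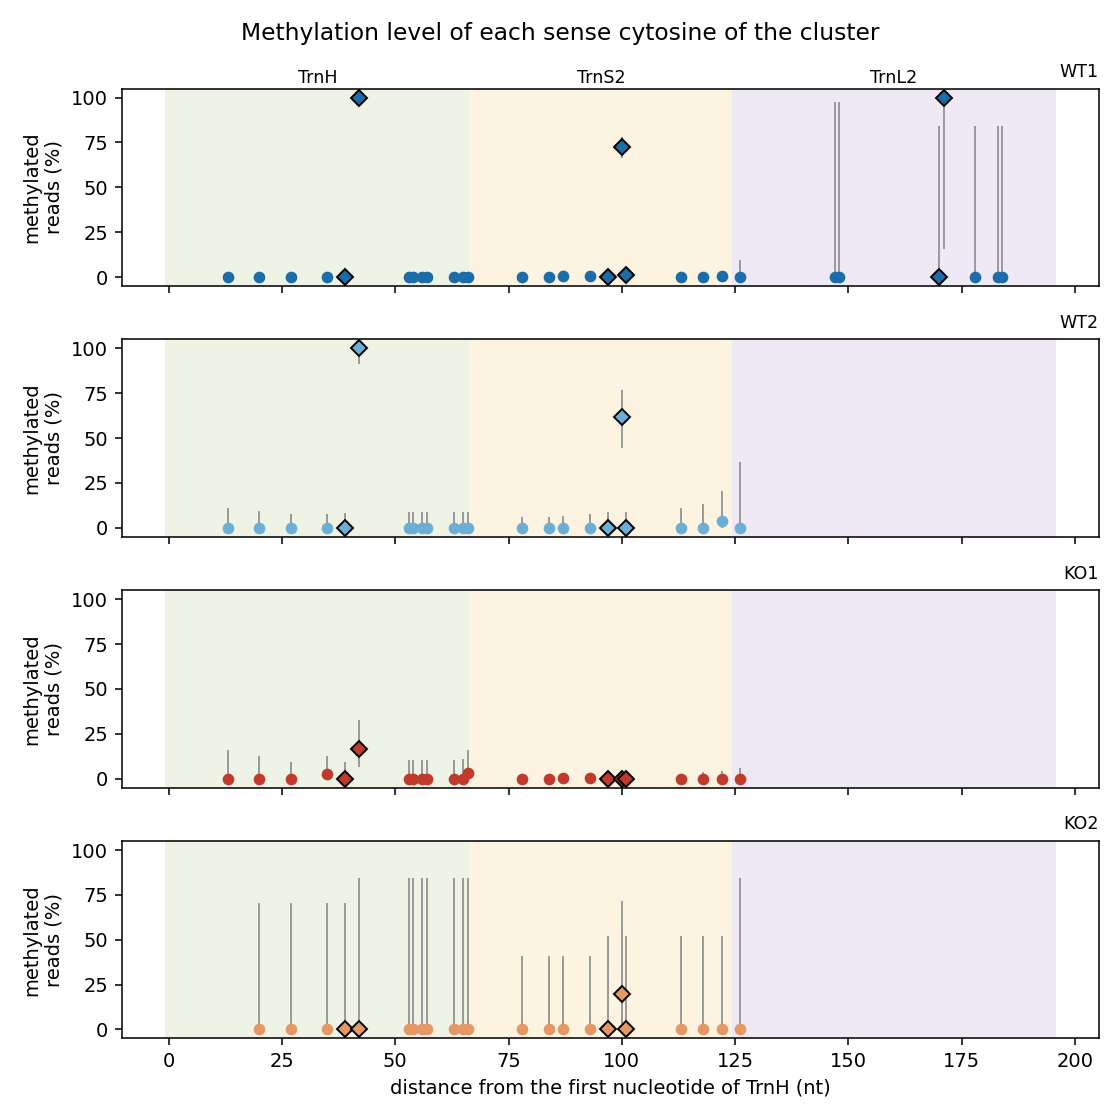
Methylation level (percent of reads, y axis) of every sense cytosine with reads, by distance in nucleotides from the first nucleotide of TrnH, in the 4 libraries; bars are exact 95% intervals, black-edged diamonds are cytosines of the variable region window and shading marks the tRNAs. Only 1 diamond each in TrnH and TrnS2 stands high in both wild-type libraries, and the single high point in TrnL2 rests on 2 reads.

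Outside the window, methylated reads were rare in every library. Over the 27 cytosines there, WT1 had 5 methylated calls in 4222 (0.118%, interval 0.0385% to 0.276%) and WT2 had 1 in 750 (0.133%, interval 0.00338% to 0.741%). KO1 had 4 in 1484 (0.27%, interval 0.0735% to 0.689%) and KO2 had 0 in 68 (where 3 counts would be 4.41%). The knockout mean, 0.135% ± 0.191 (SD, n = 2), differed from the wild-type mean, 0.126% ± 0.0105 (SD, n = 2), by less than the knockout spread. Over 59 mRNA cytosines with at least 10 reads in every library, the share was 0.203% in WT1 and 0.0775% in WT2. It was 0.0799% in KO1 (interval 0.0488% to 0.123%) and 0.0809% in KO2. The level outside the window was thus above the mRNA share in WT2 and KO1 and below it in WT1 and KO2. In KO1 the intervals of both overlapped.

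Leaving aside the 2 methylated sites, 22 cytosines of the 3 tRNAs had at least 10 reads in each genotype, with 44 to 427 wild-type and 21 to 217 knockout reads. Of these, 16 had no methylated read in any library, and 6 had 12 methylated reads among them in 7689 calls. The highest summed levels were 1.09% in wild type and 2.86% in the knockout. TrnH carried 2 of the 6, and in wild type its 12 cytosines other than 11588 had 0 methylated reads in 3048 calls. At 11581 (nucleotide 36) 1 of 41 reads of KO1 was methylated, and at 11612 (nucleotide 67, the last of the tRNA) 1 of 33, both at 0 in the other libraries. In TrnS2, 11633 (nucleotide 21) and 11639 (nucleotide 27) had 2 of 316 and 2 of 279 methylated reads in WT1 and 1 of 168 and 1 of 162 in KO1. At 11668 (nucleotide 56) WT1 had 1 methylated read of 159 and WT2 had 1 of 25, with none among 88 reads in KO1 and 5 in KO2. The reads at these positions are themselves part of the level outside the window in each library, so no comparison with that level is drawn.

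Coverage was uneven along the stretch. In TrnH the reads rose from the first listed cytosine, 11559 (nucleotide 14), with 156 and 32 reads in WT1 and WT2 and 21 and 0 in KO1 and KO2. The most covered position was 11581 with 234, 46, 41 and 3 reads in the same order, and the last, 11612, kept 218, 40, 33 and 2. In WT1, WT2 and KO1 the last position thus had 93.2%, 87.0% and 80.5% of the reads of the most covered one.

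In TrnS2 the order along the tRNA was reversed. The first listed cytosine, 11624 (nucleotide 12), was the most covered with 367, 60, 210 and 7 reads. The last, 11668 (nucleotide 56), had 159, 25, 88 and 5. In WT1 and WT2 and KO1, 43.3%, 41.7% and 41.9% of the first position's reads were left at the last, and in KO2 71.4% (5 of 7). Between 11643 and 11647, across the methylated cytosine, reads went from 243 to 221 in WT1 and from 155 to 150 in KO1.

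Sense reads fell again at the junction of TrnS2 and TrnL2. The first listed cytosine of TrnL2, 11672 (nucleotide 2), is 4 nucleotides beyond the last of TrnS2 and had 36 and 8 reads in wild type and 63 and 2 in the knockout. That is 22.6% and 32.0% of the reads at TrnS2 11668 in wild type, and 71.6% and 40% in the knockout. KO1 and KO2 were both above WT1 and WT2, but KO2 only by 2 of 5 reads. No read at 11672 was methylated. Beyond it, the other 10 cytosines of TrnL2 had at most 2 reads in WT1 and none in the other libraries, and 3 of them had no read at all. Whether the reads at 11672 belong to TrnL2 or run on from TrnS2 was not tested, and every read-call value of TrnL2 turns on this position.

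**Figure D2:**
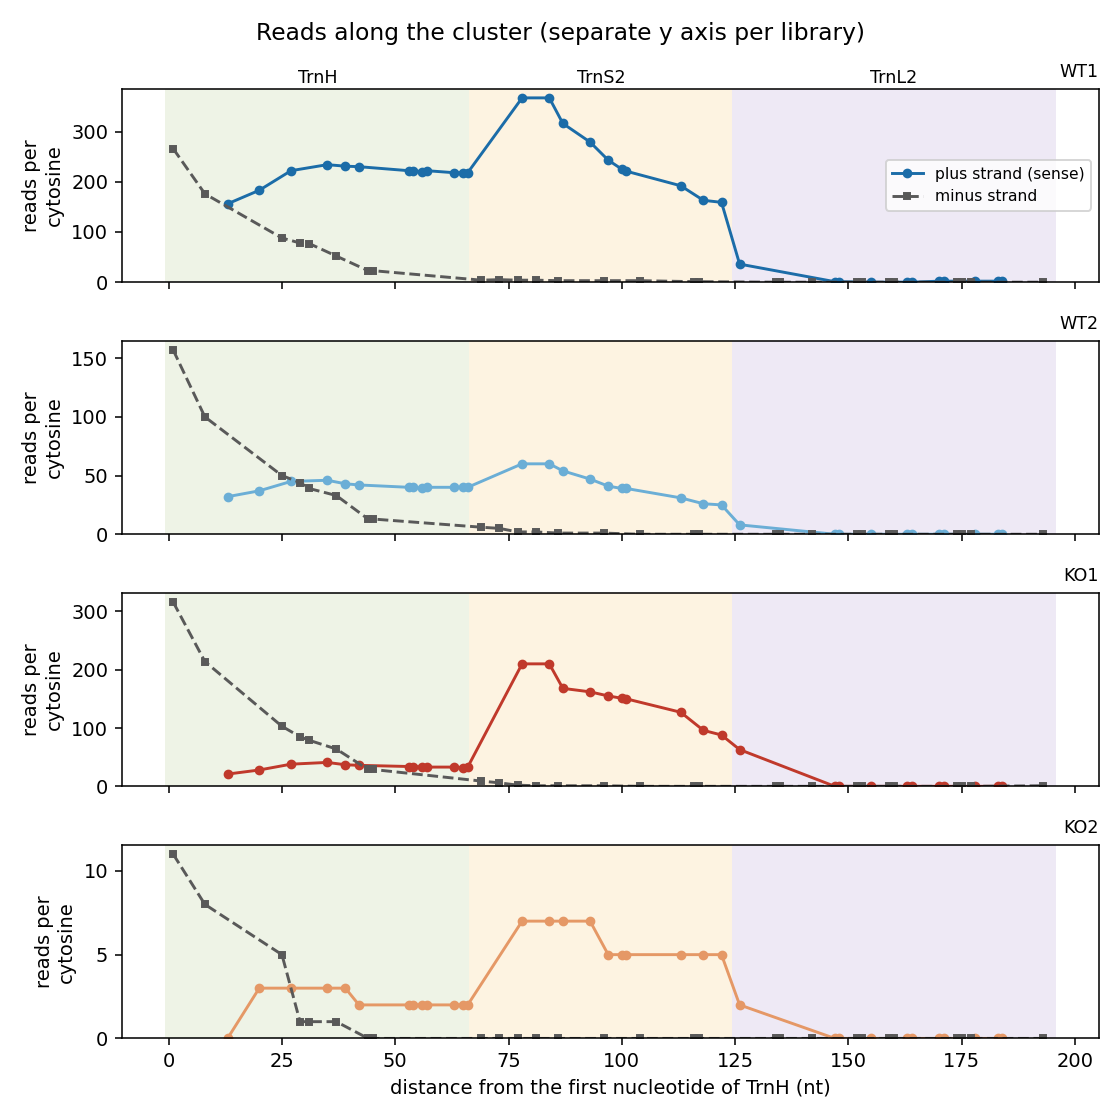
Reads per listed cytosine (y axis, separate scale for each library) against distance in nucleotides from the first nucleotide of TrnH, with plus-strand cytosines as circles and minus-strand cytosines as squares. Sense reads are highest early in TrnS2 in every library (367, 60, 210 and 7), fall to almost none in TrnL2, and in KO1 lie far lower in TrnH than in TrnS2.

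Relative to the other tRNAs, TrnH and TrnS2 were among the most covered in wild type, and TrnH had a lower rank in the knockout. TrnH took 18.8% and 17.7% of the sense tRNA calls in WT1 and WT2, and 3.11% and 2.45% in KO1 and KO2. It ranked 2 among the 22 tRNA genes in both wild-type libraries and 6 and 7 in the knockout libraries. TrnS2 took 17.0% and 14.3% in wild type and 10.9% and 5.08% in the knockout, with rank 3 in both wild-type libraries and ranks 2 and 4 in the knockout. For both tRNAs these shares did not overlap between the genotypes. That was not particular to them, since the shares of TrnA, TrnC, TrnG, TrnK, TrnM and TrnP did not overlap either. Of these, TrnC, TrnG, TrnK and TrnM were lower in the knockout, and TrnA and TrnP higher. No other of the 22 tRNA genes was apart. With 2 against 2 libraries, nothing is read from TrnH and TrnS2 being apart. The alanine tRNA TrnA moved the opposite way to TrnH and TrnS2, with 34.7% and 32.6% of the tRNA calls in wild type and 60.4% and 48.0% in the knockout. A larger share of TrnA leaves smaller shares for the others. With TrnA left out of the total, a step added after seeing the data, TrnH had 28.8% and 26.3% in wild type and 7.87% and 4.72% in the knockout, and the groups stayed apart. TrnS2 then had 26.1% and 21.2% in wild type and 27.6% and 9.78% in the knockout, and the groups overlapped. TrnH was not alone in staying apart on that scale. TrnG was also apart and lower in the knockout, and TrnP, TrnQ and TrnV were apart and higher. As a share of all calls of a library, TrnS2 also overlapped between the genotypes, with 2.82% and 0.928% in wild type and 1.53% and 0.0128% in the knockout. TrnL2 took 0.323% and 0.271% in wild type and 0.453% and 0.175% in the knockout, where the groups overlap.

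Within a library, the ratio of TrnS2 to TrnH does not depend on how many tRNA reads that library holds. Mean reads per listed cytosine were 253 in TrnS2 and 215 in TrnH in WT1, 42.2 and 40.3 in WT2, 152 and 33.3 in KO1, and 5.80 and 2.15 in KO2. The ratios were 1.18 and 1.05 in wild type and 4.55 and 2.69 in the knockout. On the log2 scale the knockout mean was 1.81 ± 0.54 (SD, n = 2) against 0.15 ± 0.12 (SD, n = 2) in wild type. The difference of 1.66 exceeded the spread within either genotype. The exact permutation test, two-sided, had p = 0.3333, the smallest that 2 against 2 libraries allow, so this design cannot reach a p under 0.05.

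**Figure D3:**
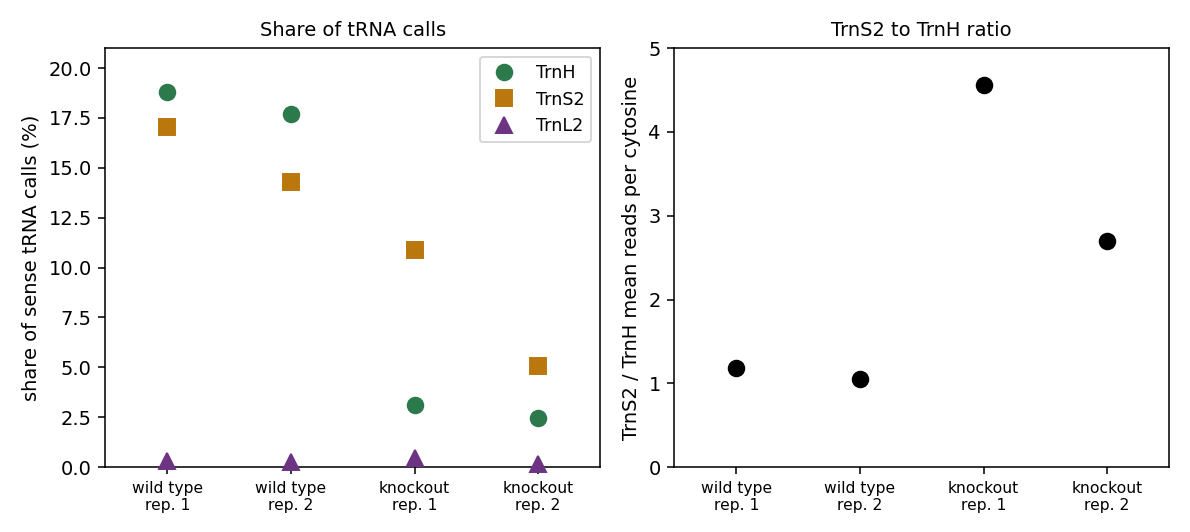
Left, share of sense tRNA calls (percent) taken by TrnH, TrnS2 and TrnL2 in each library; right, ratio of mean reads per cytosine of TrnS2 to that of TrnH, with 1 point per library and no error bars. The ratio is 1.18 and 1.05 in the wild-type libraries and 4.55 and 2.69 in the knockout libraries.

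Read calls summed per gene were compared between genotypes across 29 mitochondrial genes with at least 10 calls, and edgeR's quasi-likelihood test with Benjamini-Hochberg adjustment called 0 of the 29 in either direction (0%). DESeq2 also called 0. At an unadjusted p under 0.05 edgeR had 1 gene, TrnH, and DESeq2 had 2. TrnH had 2796 and 524 calls in wild type and 433 and 28 in the knockout, a log2 change of -2.70 ± 0.89 (SE), the lowest of the 29 genes, with an adjusted p of 0.103 in edgeR. Without KO1 the log2 change was -3.93, but there KO2 alone stood for the knockout and its spread was taken from wild type. TrnS2 had 2532 and 422 calls in wild type and 1517 and 58 in the knockout, with a log2 change of -0.87 ± 0.84 (SE) and an adjusted p of 0.812 in edgeR. Its change was -0.04 without KO2, -2.68 without KO1, -0.13 without WT1 and -1.35 without WT2, each with 1 library left in that genotype. TrnL2 had 48 and 8 calls in wild type and 63 and 2 in the knockout, with a log2 change of 0.31 ± 1.20 (SE, adjusted p = 0.873 in edgeR) whose sign depended on the scaling. The median over the 29 genes was 0.31 with TMM factors and -0.85 with plain library totals, so changes are read against that shift. In such calls, fewer molecules of a tRNA and a poorer recovery of it in the library cannot be told apart.

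Over the 4 libraries, the coverage profile most like that of TrnH was that of TrnF, the phenylalanine tRNA, followed by ND4 and TrnS2, at distances of 0.139, 0.237 and 0.244. The profile of TrnF rests on few calls, 69 and 17 in wild type and 24 and 6 in the knockout. The distance is Euclidean between profiles of calls per library total, scaled to sum to 1, over the 25 genes with at least 100 calls. For TrnS2 the nearest were TrnM, TrnV and TrnC, the tRNAs for methionine, valine and cysteine, at 0.0433, 0.0617 and 0.106. For TrnL2 they were TrnA, TrnS1 and TrnQ, the tRNAs for alanine, serine at UCN codons and glutamine, at 0.0652, 0.109 and 0.130, from few TrnL2 calls. TrnH lay farther from its nearest gene than TrnS2 or TrnL2 did from theirs.

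The opposite strand of the stretch, which encodes none of the 3 tRNAs, was read mainly at the start of TrnH. At 11547, its first listed minus-strand position inside TrnH, there were 266 and 157 reads in wild type and 316 and 11 in the knockout. At 11591 there were 23, 13, 29 and 0. Across TrnS2 no minus-strand position had more than 9 reads, and TrnL2 had 1 minus-strand read in all libraries together. Minus-strand calls made up 21.9% and 46.1% of the calls within TrnH in wild type and 68.0% and 49.1% in the knockout, against 1.09% and 3.87% and then 1.30% and 0% within TrnS2. In TrnH the WT2 interval, 43.0% to 49.3%, lay inside that of KO2, 35.4% to 62.9%, so nothing is read from the order of the genotypes. Over the whole stretch the genotypes overlapped, with 13.1% and 32.8% in wild type and 31.8% and 23.5% in the knockout. Other genes were not compared in this share. The minus-strand calls of TrnH numbered 783 and 449 in wild type and 919 and 27 in the knockout. Its plus-strand calls numbered 2796 and 524 in wild type and 433 and 28 in the knockout. Of the minus-strand calls in TrnH, 2 of 783 in WT1 and 2 of 919 in KO1 were methylated, and 0 in the remaining libraries.

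Set beside the other tRNAs, the windows of TrnH and TrnS2 held 5 of the 8 window cytosines with at least 10 reads per genotype, and edgeR called 2 of these 5 lower in the knockout. The other 19 tRNA genes had 3 such window cytosines in 3 genes, of which 1, in the methionine tRNA TrnM, was called lower. Outside the window, 0 of 19 cytosines in the 3 tRNAs and 0 of 77 in 9 other tRNA genes were called in either direction. By summed wild-type level, TrnM 3888 (82.0% of 61 reads) lay between TrnH 11588 (99.6% of 272) and TrnS2 11646 (70.8% of 264). The next window cytosine, TrnV 1073, was at 0.957%. These counts come from the contrast that guided the choice and are no test of a difference between the tRNAs.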

How the data were processed

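The authors deposited a table of counts: per the file headers, methylated (m5C) and unmethylated (C) reads per mitochondrial position for each library, not normalized. Trim Galore and Bismark are named in the submitters' processing notes, without versions, with the human build GRCh38 although the samples are mouse. Genes came from RefSeq (GRCm38.p6), sense strands from textbook knowledge. Members and lists were chosen with earlier results of these data known. The nucleotide that TrnS2 and TrnL2 share went to TrnL2.

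Methylation was fitted with edgeR 4.0.16 in R 4.3.3 (glmQLFit, glmQLFTest; terms for library, methylation state and genotype by methylation state, no dispersion trend) over 482 cytosines with 10 reads per genotype. Calls per gene were fitted with edgeR and TMM factors. limma 3.58.1, DESeq2 1.42.0 and Fisher's exact test were alternatives, and the fits were tested on simulated data. Exact intervals used scipy 1.17.1. A count of 0 gives 3 counts as the upper limit. Neighbouring cytosines share reads. Values were given in every library for the window cytosines, for those with at least 1% and 3 methylated reads, and for the most and least covered of each tRNA; the low-level cytosines outside the window were named after their values were seen.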

Additional observations from a re-analysis of the deposited data

How the results depend on the processing

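The count of cytosines called lower, 2, became 1 with limma and 0 with at least 10 reads in every library, since fewer cytosines could then be tested; leaving out each library in turn gave 0 to 2, with 0 without KO1. The count of higher cytosines was 0 in every setting run. With at least 10 reads in every library, and without KO1, no cytosine of the 3 tRNAs could be tested, so the count of 0 there says nothing. As a mean over cytosines with at least 10 reads in a library, the level outside the window was 0.163% in wild type and 0.352% in the knockout. No such cytosine of KO2 had more than 7 reads, so 0.352% is KO1 alone, which had 0.27% as summed reads. The cause of the rise in wild type and in KO1 was not tested. The same-numbered libraries of the genotypes share only a number: the correlation of their deviations was 0.494 over gene calls and -0.272 over methylation levels. With the replicate block TrnH passed for read calls (log2 change -2.81, adjusted p = 0.0109 in edgeR), and no other call for the 3 tRNAs changed. A crossed pairing, added after seeing the data, called 0 genes for read calls and 2 cytosines of the 3 tRNAs. Over the alternatives that kept all 4 libraries, the adjusted p of TrnH read calls in edgeR ran from 0.0109 to 0.961. Leaving out each library in turn gave log2 changes of TrnH read calls from -3.93 (without KO1, with KO2 alone as the knockout) to -2.05 (without KO2). That of TrnL2 was -0.15 with plain library totals, -5.20 without position 11672 (an alternative added after seeing the data, where only WT1 had reads left), and lay between -1.85 and 1.04 with each library left out in turn. Counted as mean reads per listed cytosine, the minus-strand share over the whole stretch was 15.5% against 13.1% as sums in WT1, 37.2% against 32.8% in WT2 and 36.2% against 31.8% in KO1. The differences at TrnH 11588 and TrnS2 11646 kept their direction in each alternative, from -99.8 to -83.1 and from -70.2 to -47.0 points. The values -99.8 and -47.0 are those without KO1 and rest on 2 and 5 knockout reads. Of 88 alternative values, 74 moved neither direction nor side of the threshold, nor by more than the spread between libraries or a counting interval. These 74 include the counts of higher cytosines from settings in which none could be tested. Depth limits TrnL2 beyond its second nucleotide and all of knockout replicate 2.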
